A study of Sus scrofa with 21 samples.

Results

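Remote myocardium (RM) taken 6 weeks after myocardial infarction was compared with control myocardium (CM), using 3 RM arrays and 3 CM arrays of a series of 21 pig arrays. The RM samples came from the interventricular septum, away from the scar, of 3 pigs (pigs 2, 3 and 5) whose circumflex artery had been permanently ligated at its first marginal branch. The labels give the 6-week stage as day 45 and CM as day 0. The CM samples came from 3 other pigs (pigs 30, 31 and 33), which the labels call sham-operated and the study calls healthy, and the region of the heart from which they were taken is not stated. The study describes the ligated animals as female Landrace x Large White pigs of 30 to 40 kg. It does not repeat sex and breed for the CM pigs, for which 30 to 40 kg is also listed. No genetic change is given for any animal, and the age at sampling is not stated. Each array held the RNA of 1 pig, amplified from 200 ng of total RNA. RM and infarct core (IC) of pigs with 1, 4 or 6 weeks of infarction, 3 pigs per stage, made up the other arrays. Of the 24123 probe sets on the array, the 12180 above a log2 value of 3 in at least 10 arrays were tested.

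After an infarct, the muscle that is not supplied by the blocked artery survives but works under higher wall stress, and it is known to remodel. Stretched cardiomyocytes secrete natriuretic peptides and re-express fetal sarcomere genes, fibroblasts lay down interstitial collagen, and capillaries may become sparse relative to muscle. Mitogen-activated protein kinase cascades (ERK, ERK5, p38 and JNK) carry much of the stretch signal in cardiomyocytes, and RNA-binding splicing factors such as the muscleblind-like proteins set fetal or adult isoforms. The comparison asks how much of such a change was measurable in RM 6 weeks after ligation.

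The 6 arrays carried the cells their labels name. Ventricular cardiomyocyte markers, of which 10 were measured, had a summed linear level of 41700 to 42600 in RM and 39600 to 43100 in CM. MYH7, the slow myosin heavy chain, had a mean log2 value of 12.92 in RM and 12.86 in CM, and TNNI3, the cardiac inhibitory troponin, 12.82 in RM and 12.79 in CM. None of the 6 neutrophil and 8 lymphocyte markers on the array passed the filter on low values.

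Some arrays stood apart from the others of their group. In CM pig 30, 174 of the tested probe sets lay more than 1 log2 unit from both other CM arrays, 136 of them higher. That number was 149 in RM pig 5, 119 in RM pig 2 and between 57 and 91 in the remaining arrays. The bacterial dap spike, a control RNA added during labelling, had a 5′ minus 3′ log2 difference of -3.64, -3.50 and -3.64 in RM pigs 2, 3 and 5, against -2.03, -2.02 and -2.19 in CM pigs 30, 31 and 33. For the thr spike the difference was -4.23, -4.44 and -3.52 in RM and -2.58, -2.55 and -2.73 in CM. For both spikes the difference was lower in every RM array than in every CM array, which was not so for the spikes phe (-0.96 to -0.84 in RM and -1.54 to -0.97 in CM) and lys (-0.08 to 0.21 in RM and -0.54 to -0.17 in CM), both higher in RM. Of transcripts of the samples, actin had a 5′ minus 3′ difference of -4.80 to -3.97 in RM and -3.76 to -3.59 in CM. For GAPDH it was -0.33 to -0.22 in RM and -0.21 to -0.03 in CM. A second set of actin probe sets overlapped (-1.63 to -1.53 in RM and -1.64 to -1.51 in CM). Those of EF1a overlapped too (-2.15 to -2.07 in RM and -2.35 to -2.10 in CM).

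**Figure D1:**
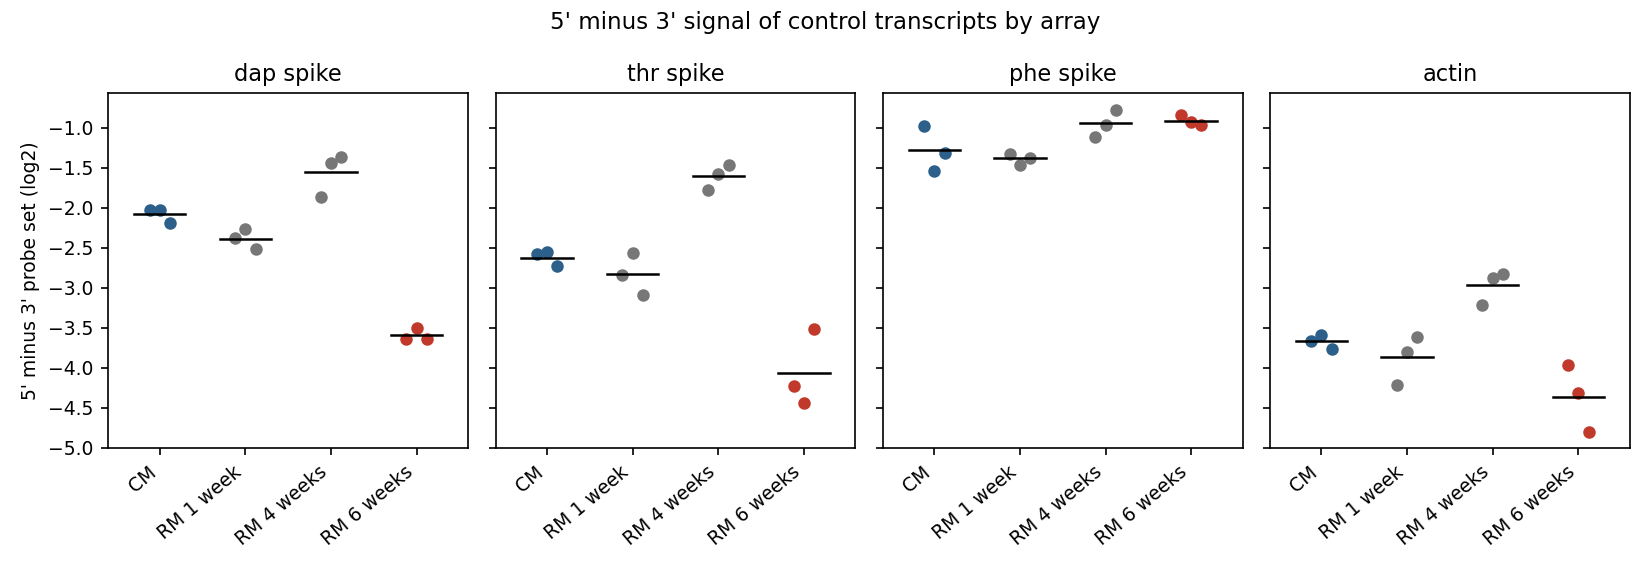
Difference of 5′ and 3′ log2 signal (y axis) of 3 added control RNAs and of actin on each array, by group (x axis), with CM as the baseline followed by RM at 1, 4 and 6 weeks. Points are single arrays and bars are group means. The dap difference lies between -3.64 and -3.50 in RM at 6 weeks and between -2.19 and -2.02 in CM, and the RM arrays of 1 and 4 weeks do not share the 6-week values.

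Few probe sets differed between RM at 6 weeks and CM. There were 24 differentially expressed probe sets (DEPS, limma, Benjamini-Hochberg adjusted p under 0.05), which is 0.197% of those tested. The 9 higher in RM (0.0739%) included the RNA helicase DDX17, the actin scaffold MTSS1 and the antizyme OAZ2. The 15 lower in RM (0.123%) included the RUNX partner CBFB, the transcription factor NFIA, the ERK phosphatase DUSP6 and both tested probe sets of the adaptor SKAP2. The absolute log2 FC of the DEPS ran from 0.756 to 3.05 with a median of 1.13, and the median over all probe sets tested was 0.181. In each of the 24 the RM values did not overlap the CM values, as was so for 20.4% of all probe sets tested. Since the samples are pieces of tissue, fewer cells of a type and less RNA per cell cannot be told apart.

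The count was small for the size of the groups, and 1521 probe sets (12.5%) had an unadjusted p under 0.05. It rested on all 6 libraries: leaving out RM pig 2, 3 or 5 gave 10, 3 or 3 DEPS, and leaving out CM pig 30, 31 or 33 gave 2, 6 or 13. CBFB and NFIA were the 2 DEPS that remained in every 1 of the 6 fits. With the 5′ minus 3′ spike difference added as a covariate, a choice made after the data were seen, there were 0 DEPS (1488 with an unadjusted p under 0.05), all 24 log2 FC kept their sign, 22 of the 24 had an unadjusted p under 0.05 and their median absolute log2 FC was 1.16. The B2M or HBA2 probe set described further on was an exception, with -0.68 (unadjusted p = 0.155) in place of -1.82, as was TOX4, with -0.58 (0.0532) in place of -0.86. The 24 had been chosen on these same arrays, so kept signs and unadjusted p are a description. The dap and thr difference, averaged, was -3.97 to -3.58 in RM and -2.46 to -2.29 in CM, with no overlap. A fit with it therefore cannot separate labelling from group, and the part of labelling in these differences was not tested further.

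**Figure D2:**
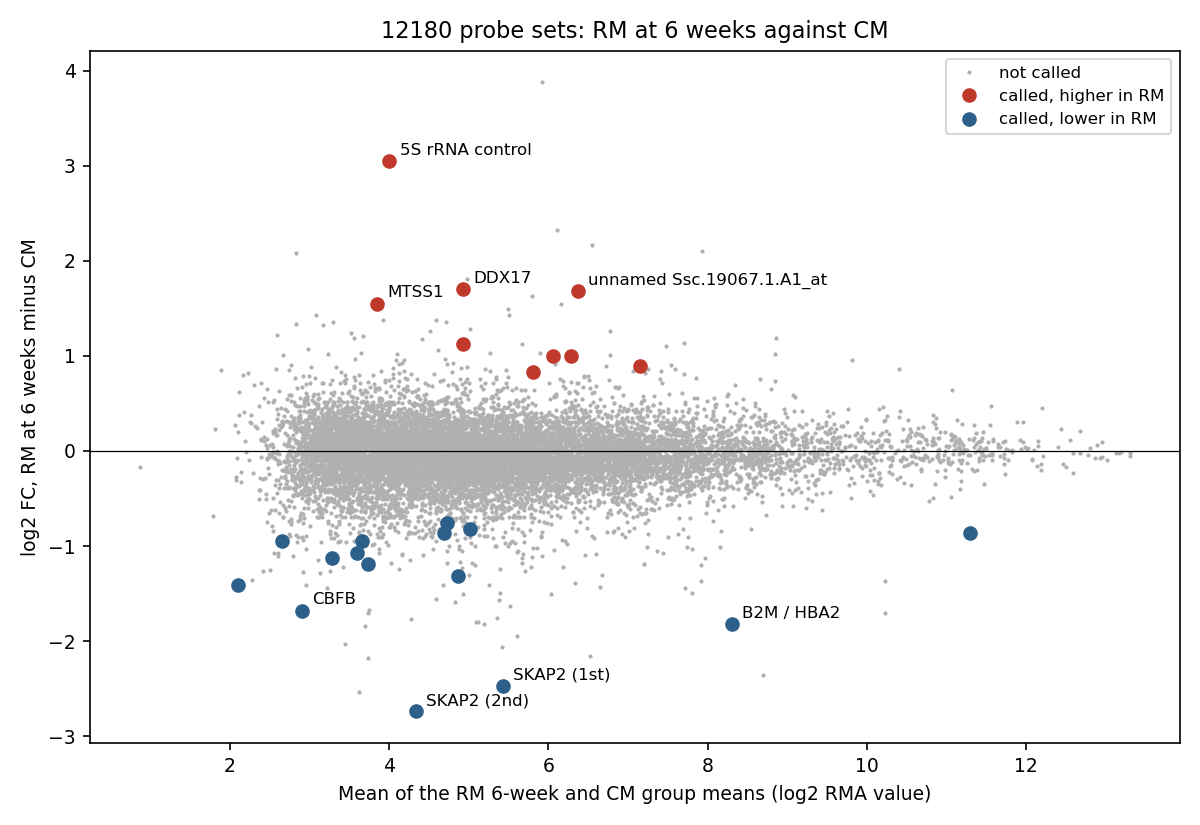
Log2 FC of RM at 6 weeks against CM (y axis) by the mean of both group means as a log2 RMA value (x axis) for the 12180 probe sets tested, with the 24 DEPS coloured. The 9 higher and 15 lower DEPS reach a log2 FC of 3.05 and -2.74.

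Among transcription regulators, 3 genes were lower in RM. CBFB is the subunit that does not itself contact DNA but stabilises RUNX proteins on it, and it had the lowest adjusted p of the comparison. Its log2 values were 2.04, 2.19 and 1.97 in RM pigs 2, 3 and 5, against 3.48, 3.91 and 3.84 in CM pigs 30, 31 and 33 (2.07 ± 0.11 and 3.74 ± 0.23, SD, n = 3 each). The RM values lay close together and every one was far under the lowest CM value. The log2 FC was -1.68 (SE 0.19, adjusted p = 0.000593, limma), 3.2-fold lower in RM. The RM mean of CBFB was under the filter value of 3, where array signal is close to its lower end, so the size of the fold is less certain than its direction. Of the 3 genes of the RUNX and core-binding factor list that were measured, CBFB alone was called.

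NFIA, a member of the nuclear factor I family of DNA-binding proteins, had log2 values of 3.08, 3.17 and 3.20 in RM and 4.24, 4.44 and 4.32 in CM (3.15 ± 0.06 and 4.33 ± 0.10, SD, n = 3 each). The spread within each group was a small part of the distance between them. Its log2 FC was -1.19 (SE 0.17, adjusted p = 0.00728). A second NFIA probe set had a log2 FC of -0.80 (adjusted p = 0.0674) and another one 0.02, so the probe sets of NFIA did not move alike, and the nuclear factor I list (3 measured genes, 0 DEPS) holds another probe set than the one called. TOX4, an HMG-box protein of a nuclear phosphatase complex, was at 4.61, 4.08 and 4.08 in RM and 5.12, 5.04 and 5.20 in CM. The TOX4 log2 FC was -0.86 (SE 0.17, adjusted p = 0.0499), just within the threshold, and its other 2 tested probe sets had log2 FC of -0.05 and -0.11.

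In the kinase pathways, 3 regulators and an adaptor were lower in RM. DUSP6, the phosphatase that inactivates ERK and is itself induced by ERK signalling, had log2 values of 2.79, 2.43 and 2.92 in RM, against 4.18, 3.59 and 3.76 in CM. All RM values of DUSP6 were under 3 and all CM values above it (log2 FC -1.13, SE 0.20, adjusted p = 0.0361). Its 2 further probe sets had log2 FC of -0.60 (adjusted p = 0.245) and -0.10. MAP2K5, the kinase upstream of ERK5, was at 2.90, 3.13 and 3.19 in RM and 4.47, 3.98 and 3.96 in CM (log2 FC -1.07, SE 0.21, adjusted p = 0.0457). PAQR3, a Golgi membrane protein that tethers RAF kinase, was at 4.65, 4.45 and 4.72 in RM and 5.35, 5.54 and 5.39 in CM (log2 FC -0.82, SE 0.15, adjusted p = 0.0361). In these 3 DEPS the lowest CM value exceeded the highest RM value. Another PAQR3 probe set had a log2 FC of -0.23 (adjusted p = 0.677).

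SKAP2, an adaptor of SRC-family kinases, had the largest falls in RM. Its first probe set was at 3.26, 4.91 and 4.41 in RM and 7.38, 6.46 and 6.17 in CM, and its second at 1.95, 3.78 and 3.18 in RM and 6.78, 5.51 and 4.85 in CM. RM pig 2 was the lowest and CM pig 30 the highest array in both. The log2 FC was -2.47 (SE 0.46, adjusted p = 0.0361), 5.55-fold lower, in the first and -2.74 (SE 0.53, adjusted p = 0.0414), 6.7-fold lower, in the second. The remaining SKAP2 probe set was left out by the filter and had a log2 FC of -1.45. With 1 probe set per gene, the lists of the RAS, RAF, MEK and ERK cascade (13 measured members) and of p38 and JNK (7) held no DEPS. PAQR3 belongs to the former list, but is entered there with its probe set of log2 FC -0.23 and not with the DEPS. DUSP6 is likewise entered in the ERK feedback list with its probe set of log2 FC -0.60. The 4 measured genes of that list had a median log2 FC of -0.44 beside -0.03 over all probe sets. It was -0.12 without CM pig 30, -0.21 without RM pig 3 and down to -0.68 without another array. Of the 5 measured genes of the ERK5 cascade and MEF2 and the 4 of the SRC family list, MAP2K5 and SKAP2 were the DEPS, 1 in each.

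**Figure D3:**
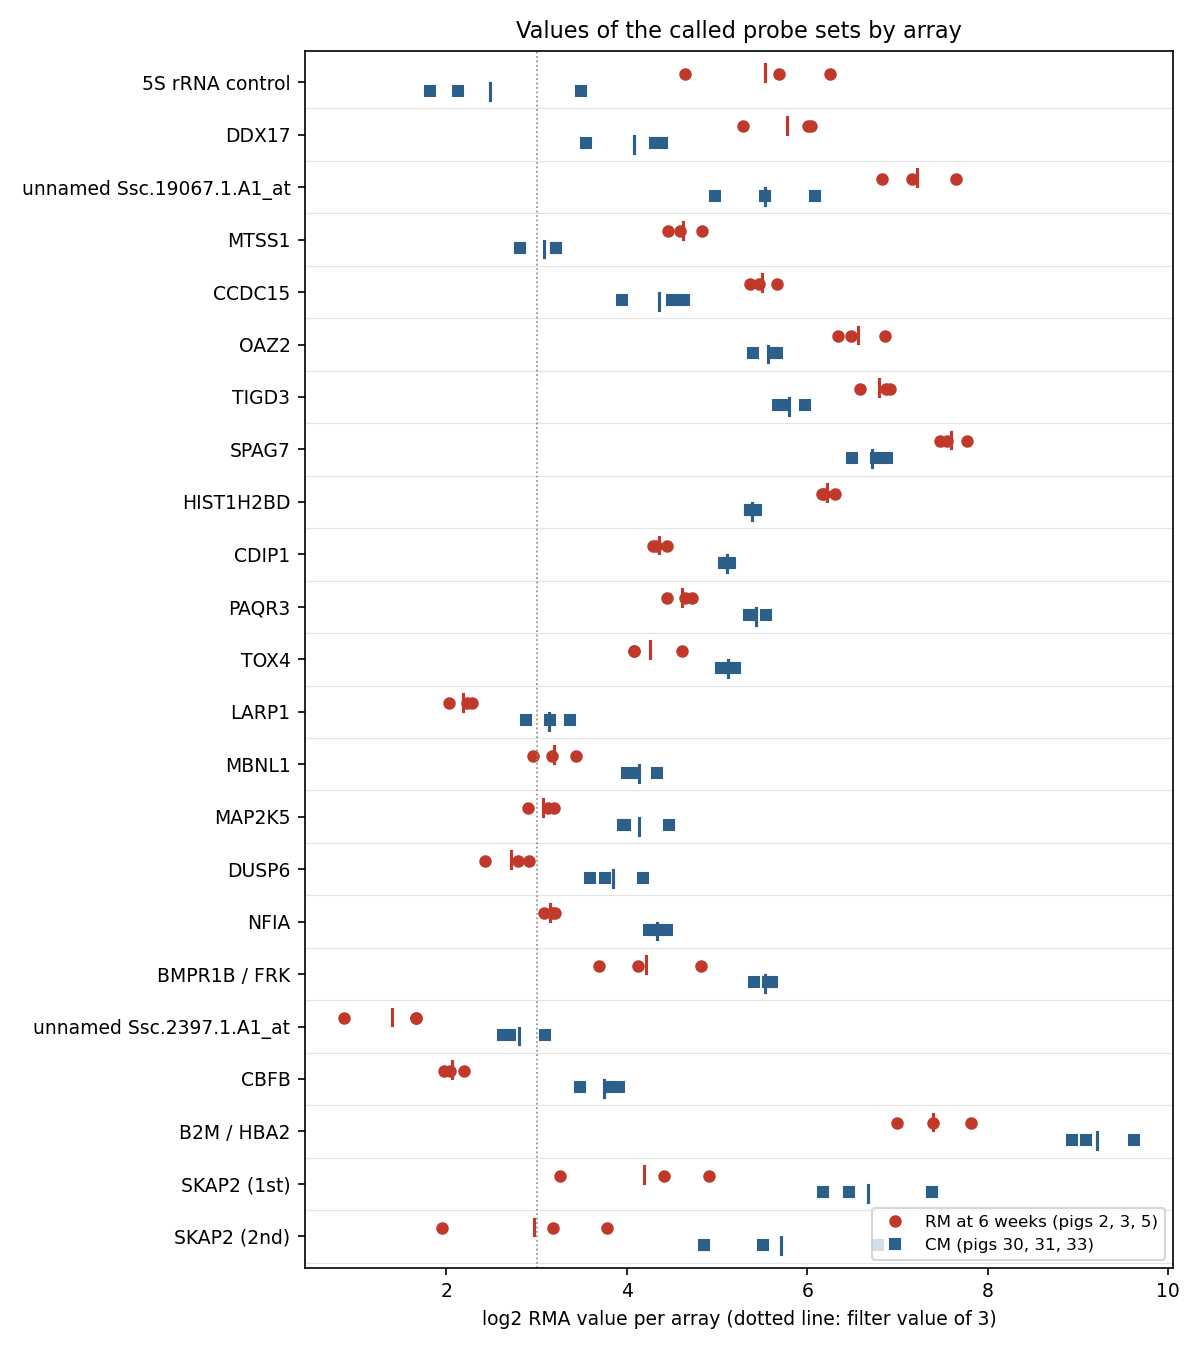
Log2 value (x axis) of each of the 23 DEPS described here (rows) on the 3 RM 6-week arrays and the 3 CM arrays, each point 1 pig and each bar a group mean, with a dotted line at the filter value of 3. RM and CM points do not overlap in any row, and all RM points of CBFB lie left of the dotted line, between 1.97 and 2.19.

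RNA-binding proteins changed in both directions. DDX17, a DEAD-box helicase that takes part in splicing and transcription, was at 6.01, 6.04 and 5.29 in RM and 4.39, 4.31 and 3.55 in CM, 3.24-fold higher in RM (log2 FC 1.70, SE 0.30, adjusted p = 0.0361). RM pig 5 and CM pig 33 were the lowest arrays of their groups. MBNL1, the muscleblind-like splicing regulator, was at 3.44, 2.96 and 3.17 in RM and 4.09, 4.33 and 4.00 in CM (log2 FC -0.95, SE 0.17, adjusted p = 0.0361). Another MBNL1 probe set had a mean of 8.71 in RM and 9.10 in CM, with a log2 FC of -0.39 (adjusted p = 0.221). LARP1, which binds the mRNAs of the translation machinery, was at 2.23, 2.03 and 2.28 in RM and 3.37, 2.88 and 3.15 in CM (log2 FC -0.95, SE 0.17, adjusted p = 0.0361). The RM mean of LARP1, 2.18, was under the filter value of 3, so the size of its fold is less certain. With 1 probe set per gene, 1 of 25 measured splicing regulators rose (DDX17) and 0 fell, with a median log2 FC of -0.01, where MBNL1 is entered with the probe set that was no DEPS, and of 13 measured genes of translation control 1 fell (LARP1).

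Among the genes of polyamine control there was 1 DEPS. OAZ2, an antizyme that binds ornithine decarboxylase and sends it to the proteasome, was at 6.86, 6.34 and 6.49 in RM and 5.40, 5.66 and 5.63 in CM, 2-fold higher in RM (log2 FC 1.00, SE 0.18, adjusted p = 0.0361). The other 2 probe sets of OAZ2 had log2 FC of 0.06 and -0.11, and the 12 measured polyamine genes a median of 0.12 (0.03 to 0.23 with 1 array left out).

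The other named DEPS higher in RM were MTSS1, CCDC15, TIGD3, SPAG7 and HIST1H2BD. MTSS1, a scaffold that links actin to the cell membrane, was at 4.46, 4.59 and 4.83 in RM and 2.82, 3.21 and 3.21 in CM, 2.93-fold higher (log2 FC 1.55, SE 0.30, adjusted p = 0.043). CCDC15, a coiled-coil protein, was at 5.46, 5.36 and 5.66 in RM and 4.50, 4.63 and 3.95 in CM (log2 FC 1.13, SE 0.20, adjusted p = 0.0361). Another CCDC15 probe set had a log2 FC of 0.78 (adjusted p = 0.151). HIST1H2BD, a histone H2B, had log2 values of 6.16, 6.31 and 6.19 in RM and 5.36, 5.43 and 5.37 in CM. Both groups varied little (log2 FC 0.83, SE 0.17, adjusted p = 0.0498), while another probe set of the gene had a log2 FC of -0.50 (adjusted p = 0.42). TIGD3, derived from a transposase, was at 6.59, 6.87 and 6.92 in RM and 5.68, 5.98 and 5.72 in CM (log2 FC 1.00, SE 0.19, adjusted p = 0.0371). SPAG7 was at 7.77, 7.55 and 7.47 in RM and 6.50, 6.76 and 6.88 in CM (log2 FC 0.89, SE 0.17, adjusted p = 0.0414). Another SPAG7 probe set had a log2 FC of 0.50 (adjusted p = 0.299).

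For 3 DEPS lower in RM the name or function needs care. CDIP1, a p53-induced cell-death gene that the authors' match names C16orf5, was at 4.32, 4.45 and 4.29 in RM and 5.11, 5.14 and 5.08 in CM (log2 FC -0.76, SE 0.14, adjusted p = 0.0371). Another CDIP1 probe set had a log2 FC of -0.23 (adjusted p = 0.645). The probe set that the platform assigns to BMPR1B, a type I BMP receptor, is FRK in the authors' match, a kinase related to SRC. It was at 4.82, 4.12 and 3.69 in RM and 5.41, 5.57 and 5.61 in CM (log2 FC -1.32, SE 0.24, adjusted p = 0.0361), and the 17 measured genes of the BMP list, with this 1 DEPS, had a median of -0.14 (-0.27 to -0.07 with 1 array left out). The probe set that the platform assigns to B2M, the light chain of class I histocompatibility molecules, is HBA2, an alpha-globin, in the authors' match.

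That B2M or HBA2 probe set was at 6.99, 7.39 and 7.81 in RM and 9.09, 9.62 and 8.93 in CM, 3.52-fold lower in RM (log2 FC -1.82, SE 0.34, adjusted p = 0.0361). The 8 other probe sets named B2M had log2 FC of -0.35 to 0.40 and were no DEPS. After their values were seen, 6 probe sets named for red-cell genes by either source were set side by side. The B2M or HBA2 probe set is 1 of them, and AHSP, HBM and ALAS2 were left out by the filter. Of the 6, 3 had every RM value under every CM value and all had a lower mean in RM (11.3% and 54.6% of all probe sets tested), which is a description. Besides the B2M or HBA2 probe set, a probe set named OAZ1 by the platform and HBD by the authors was at 8.95, 9.32 and 10.34 in RM and 10.44, 11.44 and 10.86 in CM (log2 FC -1.37, adjusted p = 0.252). ALAS2, the first enzyme of haem synthesis in red cells, was left out by the filter with values of 2.57, 3.02 and 2.71 in RM and 3.99, 3.92 and 3.50 in CM. HBB, the beta-globin and the 1 red-cell marker that passed the filter, had a log2 FC of -0.28. The part of residual blood in the B2M or HBA2 difference was not tested.

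Another 3 DEPS have no gene name in the sources used here or are array controls. The control probe set for 5S ribosomal RNA had the largest log2 FC of the DEPS, with values of 6.25, 4.65 and 5.69 in RM and 2.13, 1.82 and 3.49 in CM (log2 FC 3.05, SE 0.49, adjusted p = 0.0275), 8.3-fold higher in RM. The 2 control probe sets for 28S ribosomal RNA had log2 FC of 0.45 (adjusted p = 0.218) and 0.31 (adjusted p = 0.345), and those for 18S 0.19 (adjusted p = 0.706) and, left out by the filter, -0.17. Since the labelling primes on poly(A) tails, which 5S RNA lacks, that value is no measure of its cellular level. Ssc.19067.1.A1_at was at 7.16, 7.65 and 6.83 in RM and 6.09, 4.98 and 5.53 in CM (log2 FC 1.68, SE 0.31, adjusted p = 0.0361). Ssc.2397.1.A1_at was at 1.66, 1.66 and 0.87 in RM and 2.63, 2.70 and 3.09 in CM (log2 FC -1.41, SE 0.27, adjusted p = 0.0394).

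Across the genes of the DEPS, 23 other probe sets were tested and 0 of them were called. Of the 23, 14 had the sign of the DEPS, and all 23 had a smaller difference. Apart from those of B2M there were 15, of which 12 had the sign of the DEPS and 2 an adjusted p under 0.10. Of all 12180 probe sets tested, 45.4% lay above 0, 54.6% below 0, and 75 had an adjusted p under 0.10. A further 51 probe sets of the comparison had an adjusted p between 0.05 and 0.10, with 15 higher and 36 lower in RM. At the border, MAP2K5, HIST1H2BD and TOX4 lay just inside the threshold, and TGFB1I1, a focal adhesion coactivator (log2 FC 0.60, adjusted p = 0.0527), and NCOA7, a nuclear receptor coactivator (log2 FC -1.02, adjusted p = 0.0529), just outside.

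The genes with the largest log2 FC among those that did not pass the test, with a mean of at least 5 and with groups that did not overlap, included several muscle genes. TNNT1, the slow skeletal troponin T, was at 9.94, 8.75 and 8.26 in RM and 7.57, 6.75 and 6.34 in CM (log2 FC 2.10, adjusted p = 0.423). FHL1, a stretch-sensing protein of the sarcomere, was at 10.81, 11.07 and 10.61 in RM and 10.17, 9.88 and 9.86 in CM (log2 FC 0.86, adjusted p = 0.168). RRAD, a small GTPase that restrains calcium channels, had a log2 FC of 1.02 (adjusted p = 0.104), XIRP2, which binds actin where cardiomyocytes join, 1.26, and HOMER2, a scaffold of calcium signalling, 1.19 and 1.01 in 2 probe sets.

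In the other direction STC1, a secreted glycoprotein, was at 6.60, 6.13 and 3.63 in RM and 7.76, 7.76 and 7.31 in CM (log2 FC -2.16, adjusted p = 0.222), with RM pig 5 far under the other RM pigs. HYAL2, a hyaluronidase, had a log2 FC of -1.43 (adjusted p = 0.0609) and MT3, a metallothionein, of -1.37 (adjusted p = 0.121). SGK1, a kinase induced by glucocorticoids, had -1.22 (adjusted p = 0.104) and DUSP1, a phosphatase of p38 and JNK, -1.13 (adjusted p = 0.244). None of these differences passed the test. That every RM array lay on 1 side of every CM array was a condition of their choice, and it held for 20.4% of all probe sets tested.

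Genes of wall stress and the fetal programme lay above CM more often than below it, with no DEPS (unadjusted p under 0.05 in 3 that were higher and 1 that was lower, beside 12.5% of all probe sets). Of 13 measured members 10 had a log2 FC above 0 and 4 had all RM values above all CM values, which was so for 45.4% and 9.1% of all probe sets tested. Their median log2 FC was 0.36, beside -0.03 over all probe sets, and between 0.14 and 0.59 when 1 array was left out. NPPB, the gene of B-type natriuretic peptide, a hormone of stretched ventricles, was at 6.07, 9.08 and 8.45 in RM and 5.34, 3.27 and 3.34 in CM. RM pigs 3 and 5 carried that difference, and RM pig 2 was close to CM pig 30, so the log2 FC of 3.88, the highest of all probe sets tested, had an SE of 1.57 and an adjusted p of 0.309. The 19 measured sarcomere genes and the 15 of calcium cycling had medians of 0.10 and 0.00 with 0 DEPS.

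The lists of collagens, matrix glycoproteins, fatty acid oxidation, citric acid cycle, glycolysis and respiratory chain held 0 DEPS in RM at 6 weeks. An unadjusted p under 0.05 was found in 4, 4, 0, 0, 1 and 0 of their members, beside 12.5% of all probe sets. The 16 measured collagens had a median log2 FC of -0.05 in RM at 6 weeks against CM, where the RM samples of 1 and 4 weeks gave 0.50 and 0.32 against the same CM arrays, and the 23 matrix glycoproteins and crosslinking enzymes had -0.03, beside 0.63 and 0.31 at 1 and 4 weeks. The 6-week medians depended on CM pig 33, without which they were 0.23 for collagens and 0.34 for matrix glycoproteins (lowest with another array left out, -0.24 and -0.13). COL4A5, a basement membrane collagen chain, had a log2 FC of 1.81 (adjusted p = 0.104). Fatty acid oxidation (23 measured genes), the citric acid cycle (23) and glycolysis (17) had medians between -0.02 and 0.02. Of 30 measured genes of the respiratory chain and ATP synthase 21 lay below 0, with a median of -0.07 (-0.12 to -0.02 with 1 array left out). The 56 measured cytosolic ribosomal protein genes had a median of 0.05, with 40 above 0.

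Lists of stress-inducible genes had negative medians, again with no DEPS (unadjusted p under 0.05 in 2 to 4 members of each, beside 12.5% of all probe sets). All 13 measured immediate early genes, such as FOS, had a log2 FC below 0, with a median of -0.57. That median rested on 1 control animal: CM pig 30 had FOS at 7.85 where pigs 31 and 33 had 3.25 and 3.14, and without CM pig 30 the median was -0.14. The hypoxia response list had all 11 measured members below 0 with a median of -0.24, glucocorticoid response genes 11 of 14 with -0.52 (-0.24 to -0.70 with 1 array left out), heat shock genes 19 of 25 with -0.18 (-0.05 without CM pig 30), and cytokines, complement and adhesion genes 15 of 20 with -0.30 (-0.10 without RM pig 5). Over all probe sets tested 54.6% lay below 0.

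**Figure D4:**
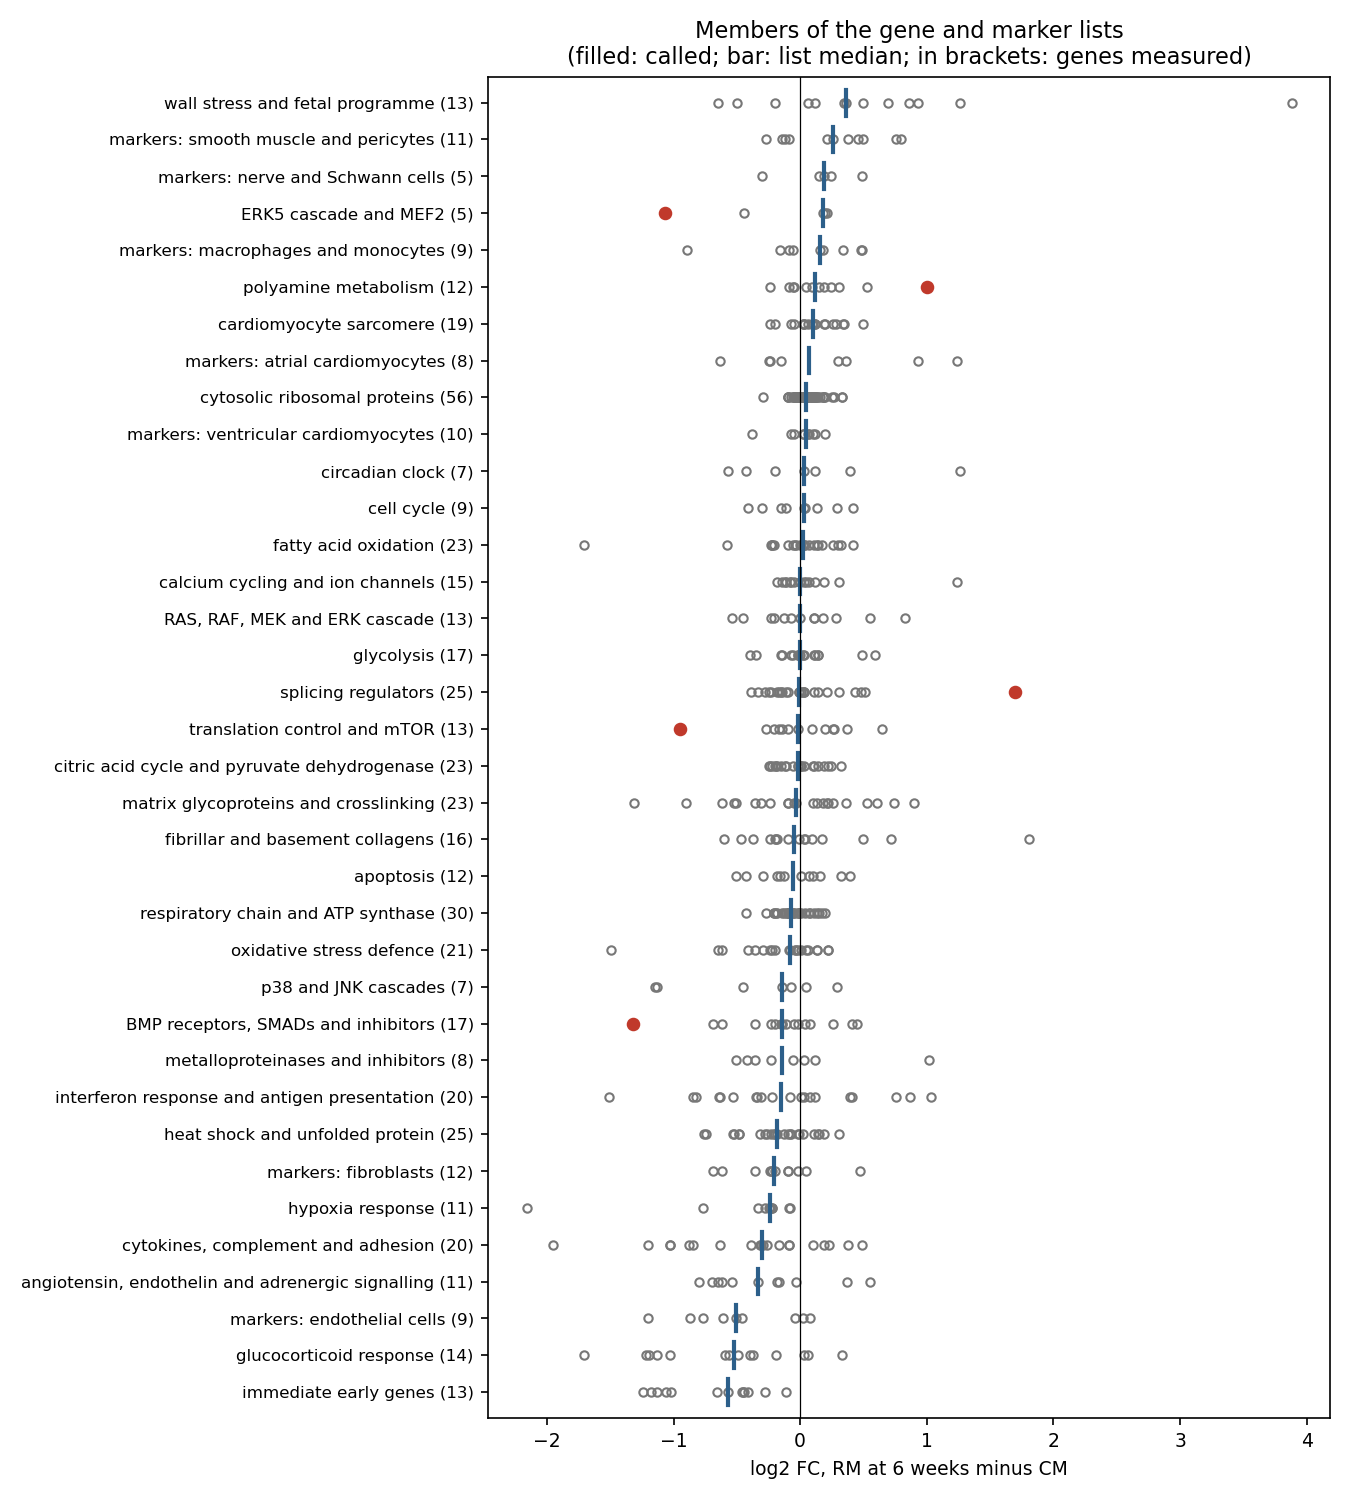
Log2 FC of RM at 6 weeks against CM (x axis) of the measured members of gene and marker lists, each with at least 5 of them (rows, number in brackets), with filled points for DEPS and a bar at the median of each list. Among the lists drawn, immediate early genes have the lowest median at -0.57 and wall stress genes the highest at 0.36.

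Among the cell type lists with at least 5 measured markers, endothelial markers had the lowest median. Of 9 measured members 7 had a log2 FC below 0 and 5 had every RM value under every CM value, against 54.6% and 11.3% of all probe sets. None were DEPS, and 3 had an unadjusted p under 0.05, beside 12.5% of all probe sets. CDH5, the cadherin of endothelial junctions, was at 6.80, 6.80 and 6.84 in RM and 7.43, 7.49 and 7.36 in CM (log2 FC -0.61, adjusted p = 0.444). ERG, a transcription factor of endothelial identity, was at 4.29, 4.38 and 4.48 in RM and 5.35, 5.40 and 5.03 in CM (log2 FC -0.87, adjusted p = 0.152). CLDN5, ESAM and PECAM1, which also build endothelial junctions, had log2 FC of -1.20, -0.77 and -0.51. VWF, ENG and EGFL7 had -0.04, 0.08 and 0.02.

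The summed linear level of the 9 endothelial markers was 451 to 501 in RM at 6 weeks, against 606 to 772 in CM, with no overlap. It was 453 to 618 in RM at 4 weeks and 323 to 536 in RM at 1 week. The median log2 FC of the list was -0.51, and between -0.61 and -0.39 with 1 array left out. This marker level moved with the group, and its part in the DEPS was not tested. The sum of 12 fibroblast markers was 2580 to 3540 in RM and 2770 to 5660 in CM, where CM pig 33 had the highest level. Smooth muscle genes and macrophage genes had median log2 FC of 0.26 (0.12 to 0.41 with 1 array left out) and 0.16 (0.04 to 0.20), with 0 DEPS in either. An unadjusted p under 0.05 was found in 4 of 11 smooth muscle genes, all higher in RM, and 0 of 9 macrophage genes, beside 12.5% of all probe sets.

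The study's own choice of RM genes was followed too, although those genes were picked from these samples and are no independent evidence. With 1 probe set for each of the 37 that could be measured, 1 rose (CCDC15) and 3 fell (NFIA, DUSP6 and MAP2K5) at 6 weeks, where 0.197% of all probe sets were DEPS. MBNL1, also among them, is entered with its probe set of log2 FC -0.39 and not with the DEPS. The median log2 FC of the 37 was -0.39.

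The DEPS were then followed through the earlier RM stages. The comparisons of RM with CM at 1, 4 and 6 weeks use the same 3 CM arrays, so their values are set side by side and were tested only by comparing RM stages directly. Against CM, CCDC15 had a log2 FC of 1.22, 1.22 and 1.13 at 1, 4 and 6 weeks, and PAQR3 of -0.79, -0.87 and -0.82. DDX17 had 0.28, 1.80 and 1.70 and OAZ2 -0.09, 0.93 and 1.00 in that order of stages. The called probe sets of CCDC15 and PAQR3 had similar values at the 3 stages, whereas those of DDX17 and OAZ2 were nearer 0 at 1 week, and OAZ2 differed between 6 weeks and 1 week (log2 FC 1.09, adjusted p = 0.027). The other PAQR3 probe set had means of 5.15, 4.67 and 4.73 in RM at 1, 4 and 6 weeks and 4.95 in CM, so it was not lower at 1 week.

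For other genes the 6-week samples stood apart, as the 6-week arrays also did in the dap and thr spikes. NFIA was at 4.23, 4.14 and 4.64 in RM of 1 week, at 4.56, 4.75 and 5.03 in RM of 4 weeks and at 3.08, 3.17 and 3.20 in RM of 6 weeks. The 6-week RM was lower than the 4-week RM by 1.64 (adjusted p = 0.000138) and lower than the 1-week RM by 1.19 (adjusted p = 0.0144) on the log2 scale. CBFB was at 3.09, 3.05 and 3.34 at 1 week, 3.04, 3.42 and 3.31 at 4 weeks and 2.04, 2.19 and 1.97 at 6 weeks, with a log2 FC of 6 weeks against 4 weeks of -1.19 (adjusted p = 0.00351). The first SKAP2 probe set was at 6.21, 6.71 and 7.26 at 1 week, 7.10, 6.96 and 5.90 at 4 weeks and 3.26, 4.91 and 4.41 at 6 weeks, with a log2 FC of 6 weeks against 4 weeks of -2.46 (adjusted p = 0.0142). No 6-week value of the called NFIA, CBFB and SKAP2 probe sets reached the lowest value of an earlier stage. A second NFIA probe set had means of 5.29, 5.34 and 4.56 in RM at 1, 4 and 6 weeks and 5.35 in CM. Another one had 7.77, 7.69 and 7.69 in RM at these stages and 7.67 in CM, so it did not show the fall.

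**Figure D5:**
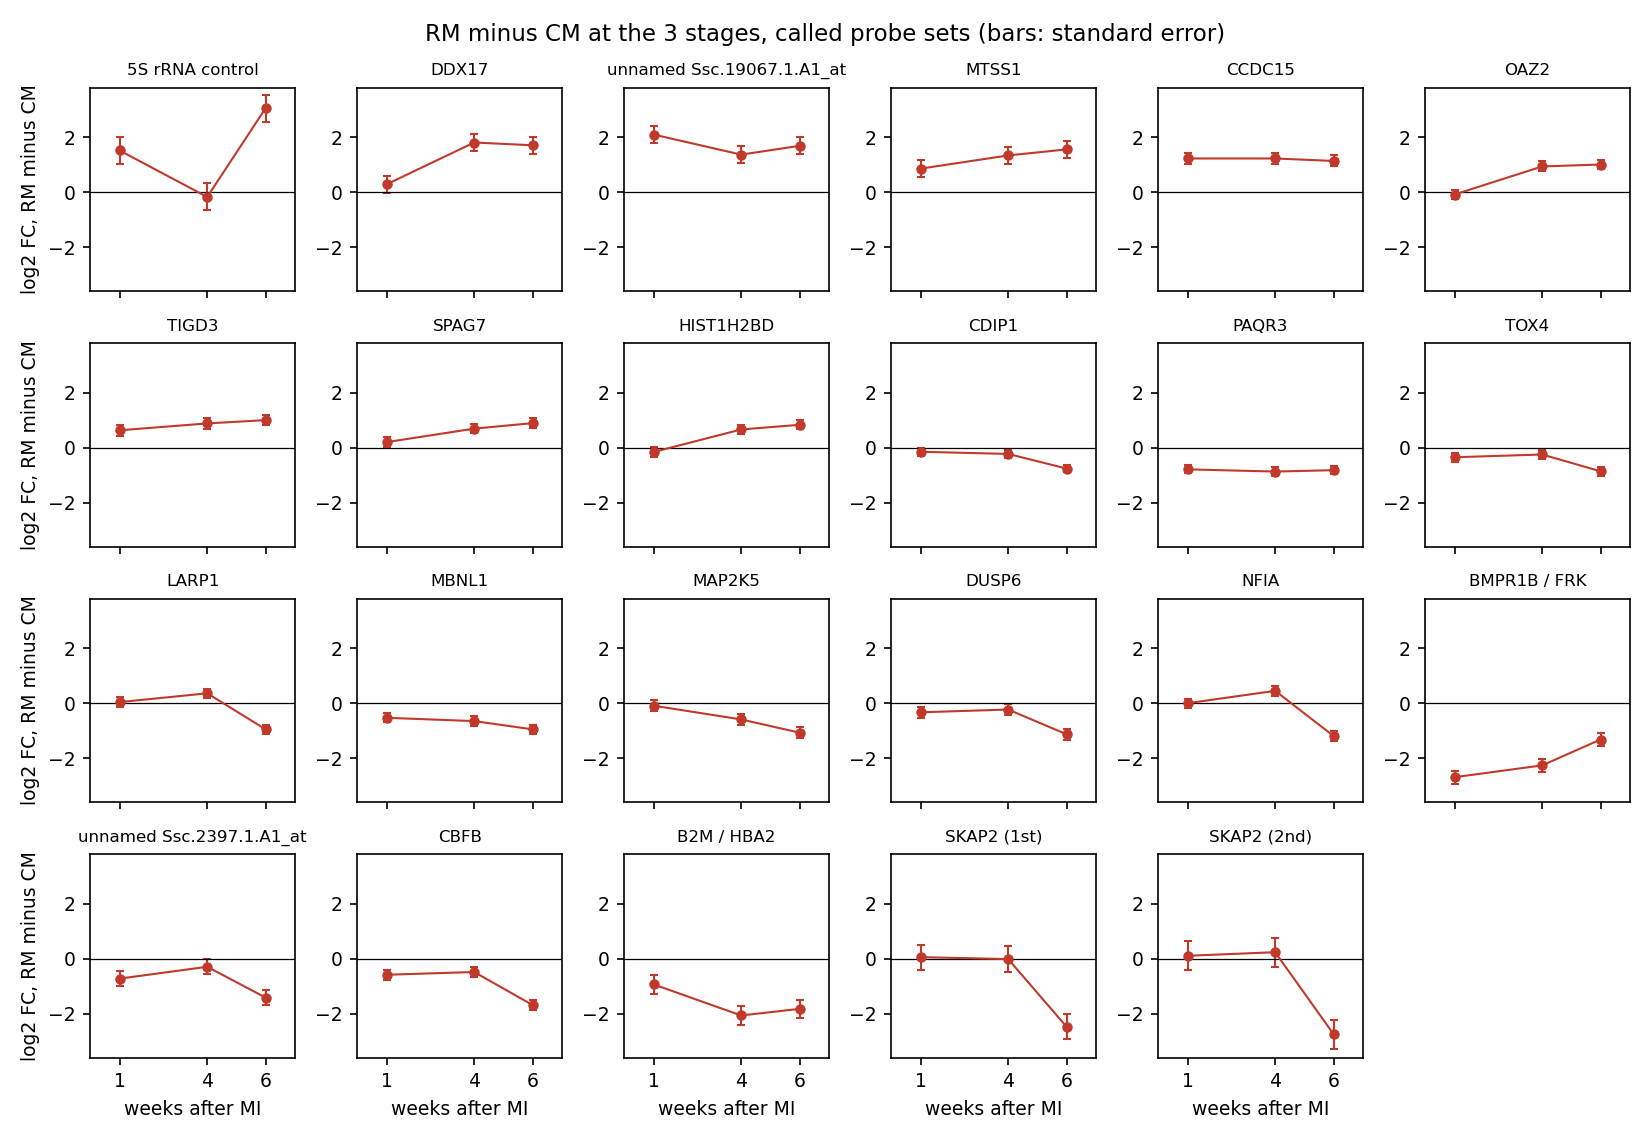
Log2 FC of RM against CM (y axis) by weeks from infarction (1, 4 and 6, x axis) for the 23 DEPS described here, with bars for the standard error of the fit. All 3 values of a panel use the same CM arrays. The called probe sets of NFIA, CBFB and SKAP2 are lower at 6 weeks than at both earlier stages. Those of CCDC15 and PAQR3 lie between 1.13 and 1.22 and between -0.87 and -0.79.

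RM at 6 weeks differed from RM at 4 weeks in 77 probe sets (0.632%), of which 14 were higher (0.115%) and 63 lower (0.517%) at 6 weeks, and from RM at 1 week in 22 (0.181%), 7 higher (0.0575%) and 15 lower (0.123%). Of the 24 DEPS against CM, 8 differed from 4 weeks and 8 from 1 week. These tests use the same 6-week arrays that chose the DEPS, so the numbers are a description. Leaving out 1 array gave 26 to 116 DEPS against 4 weeks and 0 to 83 against 1 week. LARP1 was lower at 6 weeks than at 4 weeks and at 1 week (log2 FC -1.31, adjusted p = 0.00101, and -0.99, adjusted p = 0.027), with a 6-week mean of 2.18, under the filter value of 3. The BMPR1B or FRK probe set was at 2.63, 2.96 and 2.93 in RM of 1 week and 3.28, 3.01 and 3.51 in RM of 4 weeks, lower than at 6 weeks, with a log2 FC of 1.37 for 6 weeks against 1 week (adjusted p = 0.027). The 5′ minus 3′ difference of the dap and thr spikes, averaged, was -3.97 to -3.58 in RM at 6 weeks, -1.82 to -1.41 at 4 weeks and -2.80 to -2.41 at 1 week. In IC at 6 weeks it was -5.16 to -3.68. The 5S control probe set had a mean of 5.53 in RM and 5.25 in IC at 6 weeks, beside 2.30 and 3.99 in RM at 4 weeks and 1 week. Labelling and stage cannot be told apart in these arrays, and the part of labelling in the stage differences was not tested.

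In the hearts of the same 3 pigs, RM was also set against the infarct core. IC and RM of 6 weeks differed in 5807 probe sets (47.7%, paired limma fit, 22.6% higher and 25% lower in IC), so 10 of the 24 DEPS is no more than that background. Against the same 3 CM arrays, all 24 DEPS were also called in IC at 6 weeks, 22 in the direction of RM and 2 in the other. Both comparisons share the CM arrays, so this is a description, and the share of all probe sets called there is not given here. Ssc.2397.1.A1_at was at 4.31, 4.92 and 4.78 in IC and 1.66, 1.66 and 0.87 in RM of pigs 2, 3 and 5, a log2 FC of 3.28 (adjusted p = 2.33e-05), and CM lay between them. SPAG7 was at 6.07, 6.46 and 6.20 in IC, a log2 FC of -1.36 against RM (adjusted p = 0.00012), with IC under and RM above all CM values. CDIP1 was at 3.39, 3.44 and 3.16 in IC, lower than in RM in each of the 3 pigs (log2 FC -1.03, adjusted p = 0.000204). CBFB was at 1.93, 2.27 and 2.12 and NFIA at 2.80, 3.28 and 3.30 in IC, which overlapped the RM values of both genes.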

How the data were processed

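RNA of RM, IC and CM was hybridised to 21 Affymetrix porcine 3′ arrays. The authors made the deposited log2 values by RMA (background correction, quantile normalization over arrays and summary of probes), which compresses low signals, and used limma in R. The version of neither RMA nor limma is given in the sources used here. Values were used as deposited. A limma 3.58.1 fit (R 4.3.3, statmod 1.5.0) took 7 group means over 21 arrays, with 14 residual and 3.98 prior degrees of freedom, on the 12180 probe sets above 3 in at least 10 arrays. Benjamini-Hochberg adjustment was made per comparison, with 0.05 as the threshold. IC and RM of 6 weeks were compared in a fit of the 18 arrays of infarcted pigs that held each pig as a fixed term (the replicate block, 6 residual degrees of freedom), since the labels give both samples of a pig its number. The correlation of within-group residuals between both arrays of a pig was 0.0714 to 0.491 over 9 pigs. The number of arrays limits the precision, and an exact permutation test of 3 against 3 arrays cannot go below p = 0.1.

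Probe sets carry the platform's symbol where it gives 1 (6257), else the authors' human match (1055), and 4868 have no single name here. Of 1350 with both names 255 differ. Lists use the probe set with the highest mean per gene, or, for genes the study names, the one in most of its RM tables. Members and lists were chosen with earlier results of these data known. 1 of the 24 DEPS is not reported here by name. Named are all other DEPS, other tested probe sets of their genes, some of the 10 largest uncalled rises and falls with a mean of at least 5 and no overlap, border values and up to 4 members per list. FOS and the red-cell genes were added after their values were seen. The calling scripts were tested on simulated data. The authors' comparison columns were not used. The alternatives changed the filter, scaling, variance model, samples, threshold and probe set choice.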

Additional observations from a re-analysis of the deposited data

Results flagged for a closer look

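Between RM of 6 and 4 weeks, differences themselves tested by limma, the 5S ribosomal RNA control probe set had a log2 FC of 3.23 (adjusted p = 0.00265), LARP1 -1.31 (0.00101), DUSP6 -0.90 (0.0439), NFIA -1.64 (0.000138), CBFB -1.19 (0.00351) and the 2 SKAP2 probe sets -2.46 (0.0142) and -2.98 (0.0098). CLOCK, a core gene of the circadian clock, had a log2 FC of 4.14 between these stages (adjusted p = 0.00111), with values of 4.98, 5.35 and 5.09 in RM of 6 weeks and 1.01, 1.14 and 0.84 in RM of 4 weeks. CM was at 1.62, 4.93 and 5.08, with pig 30 alone low among the CM arrays, and CLOCK did not pass the test between RM at 6 weeks and CM (log2 FC 1.26, adjusted p = 0.37).

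Between RM of 6 weeks and 1 week the log2 FC was 1.09 for OAZ2, 0.99 for HIST1H2BD, -0.99 for LARP1, 1.37 for the BMPR1B or FRK probe set and -1.10 for CBFB, each with an adjusted p of 0.027. It was -1.19 for NFIA (0.0144) and -2.53 (0.034) and -2.85 (0.0349) for SKAP2.

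Between IC and RM of the same pigs at 6 weeks, the log2 FC was 3.28 for Ssc.2397.1.A1_at (adjusted p = 2.33e-05), -1.36 for SPAG7 (0.00012), -1.03 for CDIP1 (0.000204), -1.0 for the B2M or HBA2 probe set (0.00855) and -0.85 for Ssc.19067.1.A1_at (0.0132). Smaller differences were found for DUSP6 at 0.53 (0.0227), BMPR1B or FRK at -0.53 (0.023), TOX4 at -0.67 (0.0233), PAQR3 at -0.43 (0.0312) and OAZ2 at -0.50 (0.0336).

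Among probe sets left out by the filter, 4 were higher in RM at 6 weeks than in CM when all 24123 were tested. Their log2 FC was 0.67 for IGFALS (adjusted p = 0.0369), 0.66 for TMEM68 (0.0297), 0.62 for Ssc.19082.1.A1_at (0.0369) and 0.62 for Ssc.30013.1.A1_at (0.0369), with both group means under 3. A further 9 were lower in RM: FAM216B (-2.25, 0.0285), FAS (-0.88, 0.0369), a probe set of STC1 (-1.27, 0.0102), one of ESAM (-1.32, 0.0411), ALAS2 (-1.04, 0.0365), one of BMPR1B (-1.21, 0.0449) and 3 unnamed ones with log2 FC of -1.66, -1.44 and -0.77.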

How the results depend on the processing

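The 24 DEPS of RM at 6 weeks against CM kept their direction under all alternatives run, but their number depended on the choices. It was 38 with no filter, of which 24 were the same probe sets, 142 with array weights (47 higher, 95 lower), 75 at an adjusted p under 0.10, 51 with p adjusted over the 3 comparisons of RM with CM, 14 with an absolute log2 FC of at least 1, 14 with 1 probe set per named gene, and 2 at an adjusted p under 0.01. It was 0 when only the 6 arrays compared were fitted (1654 with an unadjusted p under 0.05) and 0 with the spike covariate (1488). Leaving out 1 array gave 2 to 13. Centring on ribosomal protein genes gave 25, with 5 higher and 20 lower, of which 16 were the same probe sets. With the pig as a random replicate block the count was 21, all of them among the 24.

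For RM at 6 weeks against 4 weeks, 77 became 195 with no filter, 38 with a filter above 5 in at least 3 arrays and 26 to 116 with 1 array left out. For 6 weeks against 1 week, 22 became 36, 9 and 0 to 83 under the same alternatives, and 2 with ribosomal centring. The count was 0 without RM pig 2 or 3 of 6 weeks or RM pig 9 of 1 week (1301, 1237 and 1370 with an unadjusted p under 0.05). The replicate block gave 77 and 26. Without the pairing, IC against RM at 6 weeks gave 5335 in place of 5807, and cyclic loess gave 3106 higher and 2663 lower, against 2758 higher and 3049 lower. Leaving out 1 array gave 3588 to 4974.

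Of the DEPS, 6 had a mean under 3 in RM or CM, where the signal limits how far a fold can be read. Medians of all probe sets moved by less than 0.1 with each scaling.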
